A study of Arabidopsis thaliana with 24 samples.

Results

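Cytosolic ribosomal protein genes encode the proteins of the ribosome that translates nuclear messages in the cytoplasm. The list held 60 Arabidopsis loci, 48 for the large and 12 for the small ribosomal subunit, and a locus was used where the platform's gene table assigned a probe set to it alone. Of the 60 loci, 38 had such a probe set, 31 for the large and 7 for the small subunit, each with exactly 1, out of 22810 probe sets on the array. The other 22 loci were not analysed here, and 9 of the 29 listed protein families (L3, L5, L8, L10, L11, S3, S5, S6 and S13) had no gene with such an assignment. The table names no gene for 8794 probe sets, so these loci may have probe sets that are unnamed there. The family of each locus is given as background from the general Arabidopsis nomenclature, since the gene table gave a symbol other than the locus for only 1 measured gene, PGY1 (AT2G27530).

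The study measured roots and shoots of the Arabidopsis thaliana accession Col-0, the reference strain of the species, on ATH1 arrays of short oligonucleotide probes after sodium chloride was brought to 150 mM in the culture medium on day 16. The 6 root groups and the 6 shoot groups were taken 0.5, 1, 3, 6, 12 and 24 h after salt, with 2 arrays in each of the 12 groups and 24 arrays in all. All of these plants received salt, and untreated plants were not analysed here. The baseline of each tissue is its own 0.5 h group, and the hours since salt cannot be told apart from the hour of the day. Salt was added 3 h into the light of days with 16 h of light, so 24 h falls at nearly the clock time of 0.5 h. Nothing in the labels says that replicates were grown separately, so the spread between the arrays of a group may be technical. The p-values reflect that spread, pooled over all 12 groups of 2 arrays.

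In Arabidopsis nearly every protein of the cytosolic ribosome is encoded by a small family of similar genes, called paralogs. Building ribosomes is among the largest expenses of a growing cell, and in plants the transcription of these genes is known to follow growth, sugar supply and the TOR kinase. The proteins have distinct places: some line the tunnel through which the new chain leaves, some form the stalks where elongation factors and transfer RNAs dock, and those of the small subunit hold the message and its decoding site.

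Values are signals on a linear scale, as deposited, and differences are on the scale log2(signal + 2.205), where 1 unit is 2-fold; ± is the standard error of the fit. A gene was called when limma's p-value, adjusted by Benjamini-Hochberg over all 15199 probe sets tested, was under 0.05 and the difference was at least 2-fold, and counts by the adjusted p alone are given beside. Of the 38 genes, 37 passed the filter on low signals, and all 37 lay above its limit of 41.7 on every array, with 71.1 as their lowest value. The exception, AT3G48960 of the L13 family, lay between 5.44 and 19.4 and was not tested. The precision is limited by the 2 arrays per group.

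The tissue labels were checked against those marker genes that could be tested, 6 of 20 for shoots and 3 of 8 for roots. The summed signal of the 6 photosynthesis genes was 170 to 839 in roots and 14447 to 29826 in shoots, and that of the root markers PYK10, EXPA7 and EXPA18 was 2873 to 4344 in roots and 225 to 1073 in shoots, nearly all of it PYK10. The salt and abscisic acid marker AT3G02480 had 1633 and 910 on the root arrays of 6 h, against 26.4 and 22.9 on those of 0.5 h. In shoots it had 1479 and 1750 on the 6 h arrays, against 0.662 and 22.5 on those of 0.5 h. All 4 of its 0.5 h values lay under the filter limit of 41.7, so no fold is given. Of 7 listed markers of this kind 4 could be tested, and at 6 h 2 were called higher in roots and 4 in shoots. Of all 15199 probe sets, 1678 and 1188 were called higher there. Not called in roots were LTI30 and COR47. COR47 had 1397 and 995 on the root arrays of 6 h, against 1589 and 1577 on those of 0.5 h. Arrays of a group correlated at 0.961 to 0.984, except the root arrays of 12 h, at 0.857. At 12 h the ribosomal protein genes themselves differed between the 2 arrays of a group, by a median of 0.51 in shoots and -0.30 in roots (replicate 1 minus replicate 2), and every other group stood within 0.14 by that measure.

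In roots the ribosomal protein genes were lower than at 0.5 h from 3 h to the end of the course, and by most at 6 h. Their median difference was -0.16 at 1 h, -0.61 at 3 h, -0.90 at 6 h, -0.78 at 12 h and -0.68 at 24 h. The median of all 15199 probe sets was -0.07, -0.19, -0.21, -0.11 and -0.14 at the same times, so that at 6 h the genes stood 0.69 below it (median difference relative to all probe sets, -0.69). All 37 were below 0 at 6 h in roots, as were 60.8% of all probe sets. In bulk tissue, fewer cells of a type and less RNA per cell cannot be told apart.

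Some tissue markers were lower in roots at the same times. EXPA7 and EXPA18, expansins of root hairs, were called lower at 3 h and at 6 h, whereas PYK10 was not (0.12 ± 0.33 at 6 h). EXPA7 had 20.4 and 9.84 on the 6 h arrays, against 39.8 and 55.3 on those of 0.5 h, and EXPA18 had 24.2 and 13.7, against 44.0 and 55.5, so that both were under 41.7 at 6 h. At 24 h EXPA7 had 92.2 and 74.5 and EXPA18 had 104 and 96.8, above their 0.5 h arrays. Of the 6 photosynthesis genes 3 (PSAN, PSAE-1 and RCA) were also called lower in roots at 6 h, with a list median of -0.88, and at 24 h that median was 0.94. The 6 summed to 188 and 200 on the root arrays of 6 h, against 310 and 430 on those of 0.5 h. Their mean at 6 h thus lay under 41.7, and the size of these differences is uncertain. The part of these markers in the root result was not tested.

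By the 2-fold rule none of the 37 was called in roots at 1 h, 2 were lower at 3 h, 15 at 6 h, 11 at 12 h and 4 at 24 h. The share of all probe sets called lower by that rule was 4.86% at 3 h, 13.2% at 6 h, 6.71% at 12 h and 6.52% at 24 h. By the adjusted p alone, 28 were lower at 3 h, 36 at 6 h, 33 at 12 h and 32 at 24 h, against 23.3%, 32.6%, 21.0% and 22.3% of all probe sets. At 1 h no gene passed by the adjusted p alone (0.0197% of all probe sets were lower, and 2 of the 37 had an unadjusted p under 0.05). No gene was called higher at any time. The count at 3 h rests on single arrays: it was 6 without roots 3 h replicate 1 and 0 without replicate 2. The count at 12 h was 5 without roots 12 h replicate 1, and that at 24 h was 2 without roots 0.5 h replicate 1.

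In shoots the same genes were lower from 3 h on, and by most at 6 h. Their median difference was 0.01 at 1 h, -0.51 at 3 h, -0.84 at 6 h, -0.51 at 12 h and -0.48 at 24 h. All probe sets had medians of 0.07, 0.01, 0.05, 0.04 and -0.02, and at 6 h the genes stood at -0.89 relative to them. Of the 37 genes, 36 were below 0 at 6 h in shoots, as were 46.4% of all probe sets.

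By the 2-fold rule 5 were lower in shoots at 3 h and 10 at 6 h, and none at 1, 12 or 24 h. Of all probe sets, 5.08% were called lower at 3 h, 5.73% at 6 h, 6.5% at 12 h and 6.96% at 24 h. By limma's adjusted p alone, 22 were lower at 3 h, 32 at 6 h, 23 at 12 h and 20 at 24 h, against 12.2%, 14.0%, 13.8% and 15.8% of all probe sets. At 1 h none passed by that rule, against 2.41% of all probe sets, and none had an unadjusted p under 0.05. The count at 12 h rests on 1 array: replicate 1 had a members' median of -0.22 and replicate 2 one of -0.77, and without replicate 1 the 2-fold rule called 6. The count at 3 h was 3 without shoots 3 h replicate 2. Without shoots 0.5 h replicate 2 the counts were 2 at 12 h and 1 at 24 h, and without shoots 24 h replicate 1 the count at 24 h was 1.

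**Figure D1:**
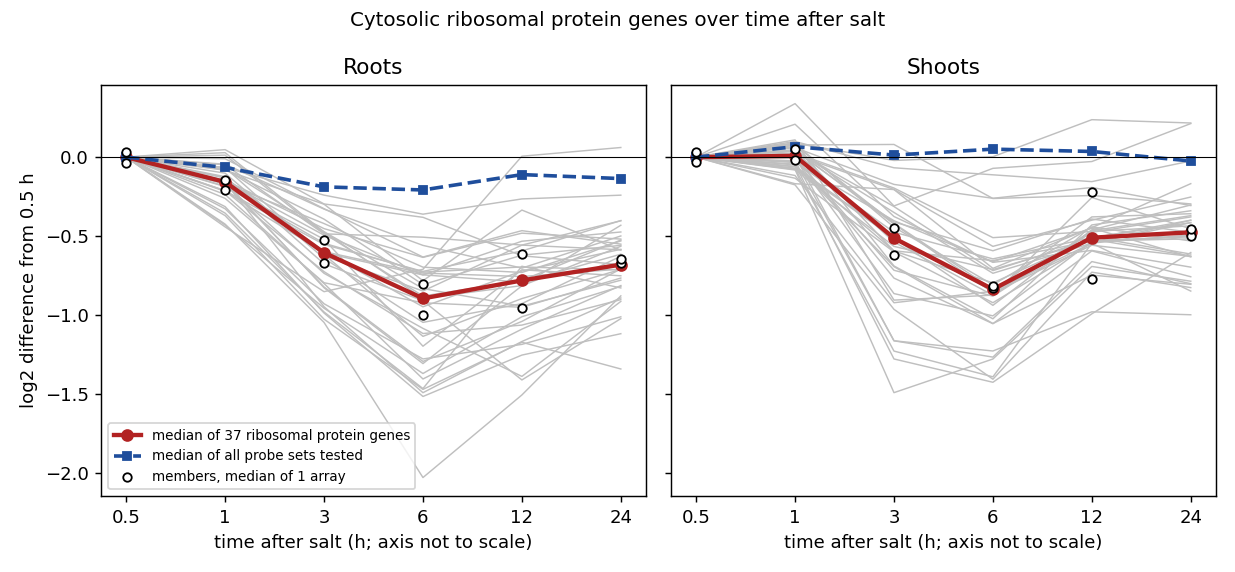
Log2 difference from 0.5 h (vertical axis) by time after salt in hours (horizontal axis, not to scale) in roots (left) and shoots (right). Grey lines are the 37 tested genes, the red line their median, the dashed blue line the median of all probe sets, and white points the members' median on each array; the red line is lowest at 6 h in both tissues, at -0.90 and -0.84, and the white points of 12 h lie farthest apart.

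The 3' to 5' signal ratios of the GAPDH and actin control probe sets, signs of RNA integrity and labelling, also varied over the course, not in the same direction. In roots the GAPDH ratio was 1.08 and 0.942 on the 0.5 h arrays, 1.65 and 1.42 on those of 6 h, and 0.9997 and 0.978 on those of 24 h. The actin ratio in roots was 13.5 and 10.7 on the 0.5 h arrays, 7.71 and 10.1 on those of 6 h, and 9.91 and 9.40 on those of 24 h. Thus in roots at 6 h GAPDH lay above and actin below its 0.5 h arrays. In shoots the 0.5 h arrays had GAPDH ratios of 1.59 and 1.47, those of 6 h had 1.77 and 1.77, and those of 24 h had 1.15 and 1.24. For actin the shoot arrays of 0.5 h had 6.33 and 8.25, those of 6 h had 11.2 and 7.58, and those of 24 h had 14.6 and 14.9. At 12 h in shoots, where the ribosomal protein genes differed between arrays, the actin ratio was 19.9 on replicate 1 and 6.54 on replicate 2. The part of RNA quality in these results was not tested.

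A test over all 5 differences from 0.5 h (limma's F test, adjusted p under 0.05) passed for 36 of the 37 genes in roots and for 32 in shoots, against 59.1% and 49.5% of all probe sets. The exception in roots was AT3G09630 of the L4 family. The 5 exceptions in shoots were AT4G27090 (L14), AT4G02230 (L19), AT3G13580 (L7), AT3G24830 (L13a) and AT2G17360 (S4). In roots 26 genes had their lowest group mean at 6 h and 9 at 12 h. In shoots 28 had it at 6 h and 5 at 3 h.

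**Figure D2:**
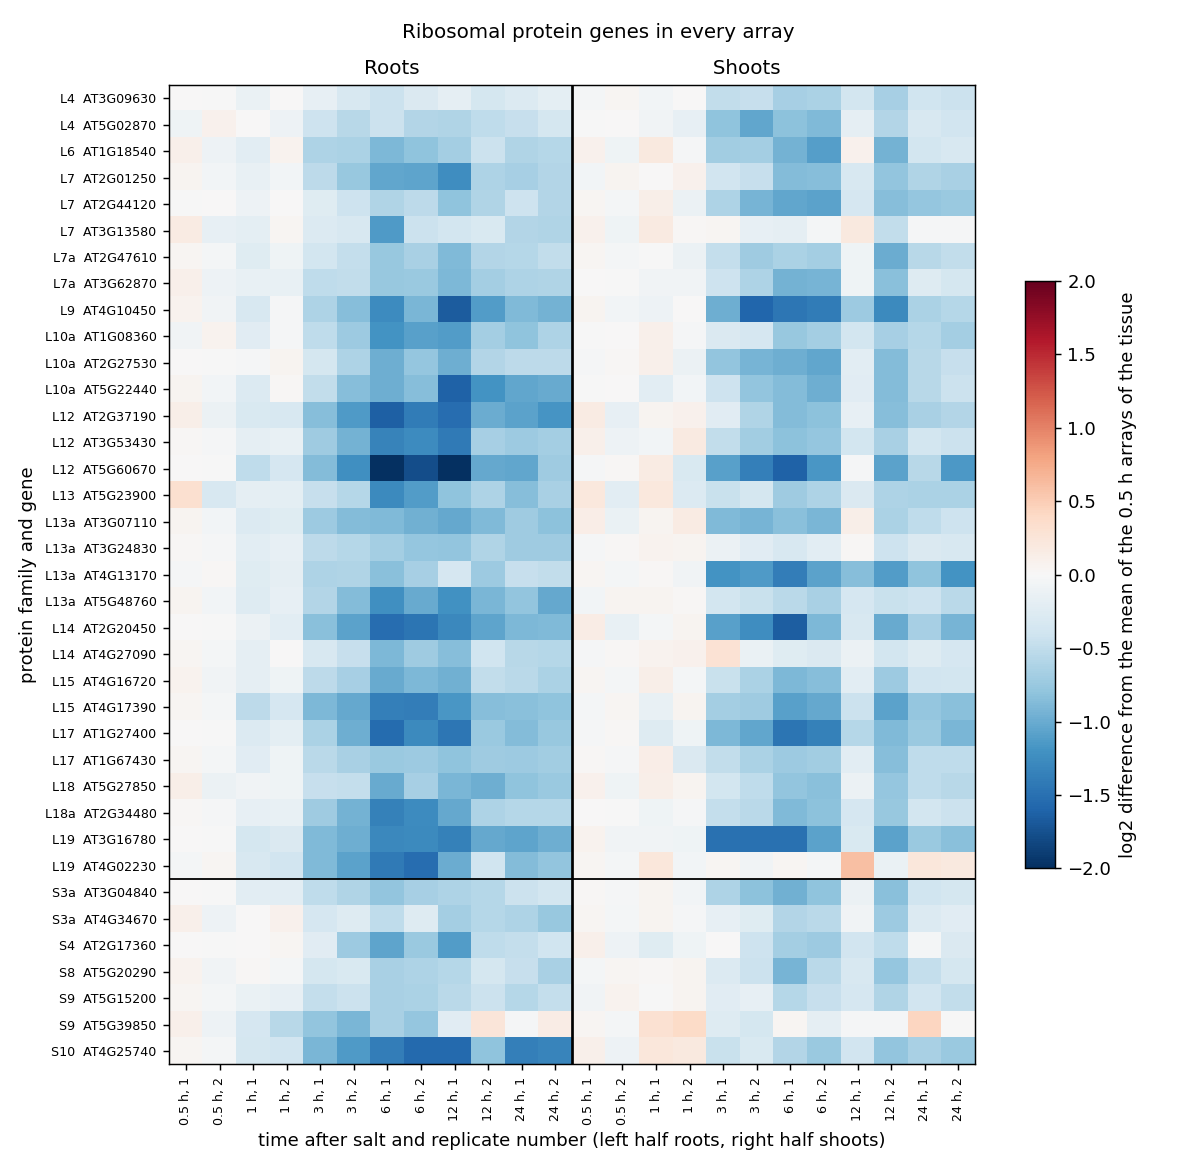
Log2 difference of each of the 37 genes (rows, by family, large subunit above the line and small subunit below it) from the mean of the 0.5 h arrays of its tissue, on each of the 24 arrays (columns, roots left and shoots right, by time and replicate). Blue is lower and red higher; most rows are bluest at 6 h, and the right side shows pale rows for AT4G02230, AT3G13580, AT4G27090, AT3G24830 and AT5G39850.

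The 30 tested genes of the large subunit had a median of -0.94 in roots and -0.85 in shoots at 6 h, and the 7 of the small subunit had -0.71 and -0.67. Of the large subunit 14 were lower by at least 2-fold in roots and 10 in shoots. Of the small subunit 1 was lower in roots and none in shoots by that rule, and 6 in each tissue by the adjusted p alone. Of all probe sets, 13.2% in roots and 5.73% in shoots were lower by the 2-fold rule, and 32.6% and 14.0% by the adjusted p alone. By the 2-fold rule the small subunit in roots was thus near the share of all probe sets. The difference between the subunits was not tested.

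The L12 proteins sit at the base of the stalk that receives elongation factors, and AT5G60670 of this family had the lowest difference of all members in roots. Its root signals were 1072 and 1051 (0.5 h), 746 and 837 (1 h), 581 and 452 (3 h), 215 and 309 (6 h), 265 and 521 (12 h), and 514 and 646 (24 h). Both arrays of each later time lay below both of 0.5 h, and the 6 h arrays were the lowest pair. The difference at 6 h was -2.03 ± 0.34, a 4.09-fold lower signal (limma's adjusted p = 1.63e-04). Its shoot signals were 773 and 805 (0.5 h), 882 and 639 (1 h), 370 and 304 (3 h), 256 and 349 (6 h), 774 and 376 (12 h), and 537 and 355 (24 h). The 2 shoot arrays of 12 h stood apart, with 1 of them at the level of 0.5 h. At 6 h the difference in shoots was -1.39 ± 0.34 (limma's adjusted p = 0.00474), and without shoots 6 h replicate 1 it was -1.17 and missed the threshold.

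The other L12 genes fell too. AT2G37190 had root signals of 601 and 704 at 6 h, against 2021 and 1725 at 0.5 h, a difference of -1.52 ± 0.21 (limma's adjusted p = 4.45e-05). It was still at 892 and 825 in roots at 24 h (-1.12 ± 0.21, limma's adjusted p = 9.73e-04), 1 of the 4 genes called at that time. In shoots it had 507 and 523 at 6 h, against 1033 and 823 at 0.5 h, a difference of -0.84 ± 0.21. AT3G53430 differed by -1.29 ± 0.18 in roots and by -0.80 ± 0.18 in shoots at 6 h. All 3 L12 genes were thus lower at least 2-fold in roots at 6 h, with differences between -2.03 and -1.29.

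L10a proteins form the mobile stalk on the opposite side of the large subunit, beside the exit site of transfer RNA. PGY1 (AT2G27530), known from leaf patterning mutants, had shoot signals of 497 and 476 at 6 h, against 963 and 996 at 0.5 h (-1.01 ± 0.18, limma's adjusted p = 4.44e-04). Its root signals were 644 and 744 at 6 h, against 1290 and 1263 at 0.5 h (-0.88 ± 0.18). AT5G22440 had its lowest root signals later, with 950 and 872 (0.5 h), 753 and 927 (1 h), 643 and 503 (3 h), 464 and 504 (6 h), 294 and 395 (12 h), and 440 and 454 (24 h). It was called lower in roots at 12 h (-1.41 ± 0.20) and at 24 h (-1.02 ± 0.20, limma's adjusted p = 0.00122), and its arrays of 3 h and later did not overlap those of 0.5 h. AT1G08360 was lower by -1.14 ± 0.15 in roots and by -0.72 ± 0.15 in shoots at 6 h. Across the 3 L10a genes the differences at 6 h lay between -1.14 and -0.88 in roots and between -1.01 and -0.72 in shoots.

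L4 and L17 proteins reach into the exit tunnel. The L4 genes were among the least changed in roots. AT3G09630 had root signals of 2165 and 2158 (0.5 h), 1963 and 2171 (1 h), 1926 and 1736 (3 h), 1606 and 1761 (6 h), 1900 and 1703 (12 h), and 1778 and 1880 (24 h). Its difference at 6 h was -0.36 ± 0.12 (limma's adjusted p = 0.0166), the highest among the 37 in roots, and it missed the threshold in the fits that used each tissue alone or centred each array on its median. In shoots it had 1109 and 1140 at 6 h, against 1710 and 1809 at 0.5 h (-0.64 ± 0.12, limma's adjusted p = 5.03e-04). AT5G02870 had shoot signals of 1190 and 1136 at 6 h, against 2090 and 2105 at 0.5 h (-0.85 ± 0.13), and root signals of 1650 and 1466 at 6 h, against 2086 and 2344 at 0.5 h (-0.51 ± 0.13).

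AT1G27400 of the L17 family fell by nearly the same amount in both tissues. Its root signals were 403 and 484 at 6 h, against 1183 and 1165 at 0.5 h (-1.41 ± 0.19, limma's adjusted p = 2.97e-05). Its shoot signals were 280 and 303 at 6 h, against 761 and 792 at 0.5 h (-1.41 ± 0.19, limma's adjusted p = 3.1e-05). The groups did not overlap in either tissue, and at 24 h the gene stood at -0.81 ± 0.19 in roots and -0.83 ± 0.19 in shoots. Its paralog AT1G67430 differed at 6 h by -0.74 ± 0.16 in roots and by -0.71 ± 0.16 in shoots.

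AT4G10450 is the only measured gene of the L9 family, whose proteins lie near the site where translation factors bind. It had the lowest difference of the 37 in shoots at 6 h, with 103 and 107, against 296 and 277 at 0.5 h (-1.43 ± 0.22, limma's adjusted p = 1.29e-04). Its shoot signals were already 145 and 93.7 at 3 h and were back to 183 and 191 at 24 h, still below both arrays of 0.5 h. In roots it had 221 and 281 at 6 h, against 561 and 504 at 0.5 h (-1.09 ± 0.22, limma's adjusted p = 8.27e-04).

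Genes of the L15, L18a and L13 families were also called. AT4G17390 (L15) had root signals of 663 and 652 at 6 h, against 1760 and 1652 at 0.5 h (-1.37 ± 0.16), and shoot signals of 594 and 625 at 6 h, against 1236 and 1300 at 0.5 h (-1.05 ± 0.16). AT2G34480 (L18a) had root signals of 808 and 864 at 6 h, against 2113 and 2033 at 0.5 h (-1.31 ± 0.14, limma's adjusted p = 7.38e-06). In shoots it differed by -0.85 ± 0.14 at 6 h. AT5G23900 of the L13 family was called in roots at 6 h too (-1.20 ± 0.20), although its 0.5 h arrays were spread, at 1156 and 744.

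In the small subunit, S10 lies near the channel by which the message enters. Its gene AT4G25740 had root signals of 713 and 679 (0.5 h), 545 and 531 (1 h), 367 and 315 (3 h), 265 and 235 (6 h), 236 and 399 (12 h), and 270 and 276 (24 h). Every root array from 1 h on lay below both of 0.5 h, and this was the only small subunit gene called by the 2-fold rule at any time, in roots at 3, 6, 12 and 24 h. The differences were -1.47 ± 0.19 at 6 h and -1.34 ± 0.19 at 24 h (limma's adjusted p = 2.23e-05 and adjusted p = 1.07e-04), and the difference at 24 h was the lowest among the 37 in roots. In shoots it had 325 and 293 at 6 h, against 528 and 458 at 0.5 h (-0.67 ± 0.19).

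S9 proteins line the entry of the message and bear on decoding accuracy, and the pair of S9 genes differed in course. AT5G15200 had root signals of 1861 and 1885 at 6 h, against 2977 and 2845 at 0.5 h (-0.64 ± 0.11), and shoot signals of 1681 and 1819 at 6 h, against 2380 and 2608 at 0.5 h (-0.51 ± 0.11). AT5G39850 had root signals of 163 and 142 (0.5 h), 120 and 103 (1 h), 86.9 and 80.0 (3 h), 96.0 and 88.6 (6 h), 130 and 180 (12 h), and 150 and 168 (24 h). It was thus lower at 3 and 6 h (-0.71 ± 0.17 at 6 h, limma's adjusted p = 0.00264) and overlapped its 0.5 h arrays again at 12 and 24 h. In shoots its signals were 106 and 90.6 at 6 h, against 107 and 99.9 at 0.5 h (-0.07 ± 0.17, limma's adjusted p = 0.795). The difference in course between these paralogs was not tested.

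Genes of the S8 and S3a families were lower by less than 2-fold or did not pass. AT5G20290 (S8) had root signals of 2121 and 2189 at 6 h, against 3520 and 3175 at 0.5 h (-0.63 ± 0.15), and shoot signals of 1914 and 2491 at 6 h, against 3555 and 3725 at 0.5 h (-0.74 ± 0.15). AT4G34670 (S3a) had root signals of 1423 and 1708 at 6 h, against 2175 and 1897 at 0.5 h (-0.38 ± 0.16, limma's adjusted p = 0.0569), the only 1 of the 37 not past the adjusted p in roots at 6 h. Its root signals at 24 h were 1330 and 1205 (-0.68 ± 0.16, limma's adjusted p = 0.00416). In shoots it had 729 and 749 at 6 h, against 1125 and 1065 at 0.5 h (-0.57 ± 0.16).

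Whether roots and shoots changed by different amounts was tested for each gene by the interaction term, the change in roots minus that in shoots. At 6 h the test passed for 5 of the 37 by the adjusted p alone, all with the larger decrease in roots, and 1 of them differed by at least 2-fold. Of all probe sets, 27.9% and 18.5% were called lower by these 2 rules, larger shares than among the 37. The median interaction at 6 h was -0.07 for the 37 genes and -0.26 for all probe sets. Relative to all probe sets the genes thus stood at 0.19, towards the smaller decrease in roots. Centring the arrays turned the sign of the genes' median to positive. The part of the shift of all probe sets in the 5 calls was not tested. At 24 h 1 gene passed by either rule, against 15.4% and 8.4% of all probe sets. For the remaining genes a difference between the tissues was not shown, which does not show that they changed alike. At 6 h, 31 of the 37 were lower in both tissues by the adjusted p alone, and 6 were by the 2-fold rule. The share of all probe sets lower in both tissues was not counted. It cannot exceed that of shoots alone, 14.0% by the adjusted p and 5.73% by the 2-fold rule.

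The gene that passed at both times was AT4G02230 of the L19 family, whose proteins extend a long helix towards the small subunit. Its root signals were 1096 and 1165 (0.5 h), 901 and 866 (1 h), 609 and 536 (3 h), 423 and 392 (6 h), 569 and 859 (12 h), and 620 and 651 (24 h). Its shoot signals were 629 and 591 (0.5 h), 714 and 589 (1 h), 623 and 579 (3 h), 629 and 593 (6 h), 926 and 558 (12 h), and 716 and 701 (24 h). All root arrays from 1 h on lay below those of 0.5 h, whereas the shoot arrays of 6 h spanned the same range as those of 0.5 h. At 6 h the difference was -1.47 ± 0.20 in roots and 0.00 ± 0.20 in shoots, and the interaction was -1.47 ± 0.28 (limma's adjusted p = 8.12e-04). At 24 h the difference was -0.83 ± 0.20 in roots and 0.22 ± 0.20 in shoots, and the interaction was -1.05 ± 0.28 (limma's adjusted p = 0.0132).

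The other 4 genes that passed the interaction test at 6 h also had the larger decrease in roots. They were S10 AT4G25740 (interaction -0.81 ± 0.27), S9 AT5G39850 (-0.64 ± 0.24), L13a AT5G48760 (-0.52 ± 0.19) and L13a AT3G24830 (-0.47 ± 0.18), with adjusted p between 0.0236 and 0.0427 in limma. AT5G48760 had root signals of 186 and 219 at 6 h, against 459 and 424 at 0.5 h, and shoot signals of 189 and 174 at 6 h, against 265 and 285 at 0.5 h. AT3G24830 had root signals of 1510 and 1415 at 6 h, against 2460 and 2388 at 0.5 h, and shoot signals of 1361 and 1464 at 6 h, against 1668 and 1716 at 0.5 h. For AT4G25740 the call was lost with arrays centred on their median, at -0.57, and with 1 h in place of 0.5 h, at -0.23. Whether the calls of AT5G39850, AT5G48760 and AT3G24830 hold under these settings is not given here.

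The 2 highest interaction values did not pass. L7 AT2G44120 had root signals of 866 and 913 at 6 h, against 1308 and 1315 at 0.5 h, and shoot signals of 405 and 397 at 6 h, against 856 and 816 at 0.5 h, an interaction of 0.50 ± 0.22 (limma's adjusted p = 0.0791). L13a AT4G13170 had root signals of 220 and 248 at 6 h, against 388 and 399 at 0.5 h, and shoot signals of 174 and 216 at 6 h, against 470 and 445 at 0.5 h, an interaction of 0.48 ± 0.22 (limma's adjusted p = 0.0905). With arrays centred on their median both passed, at 0.73 and 0.71.

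**Figure D3:**
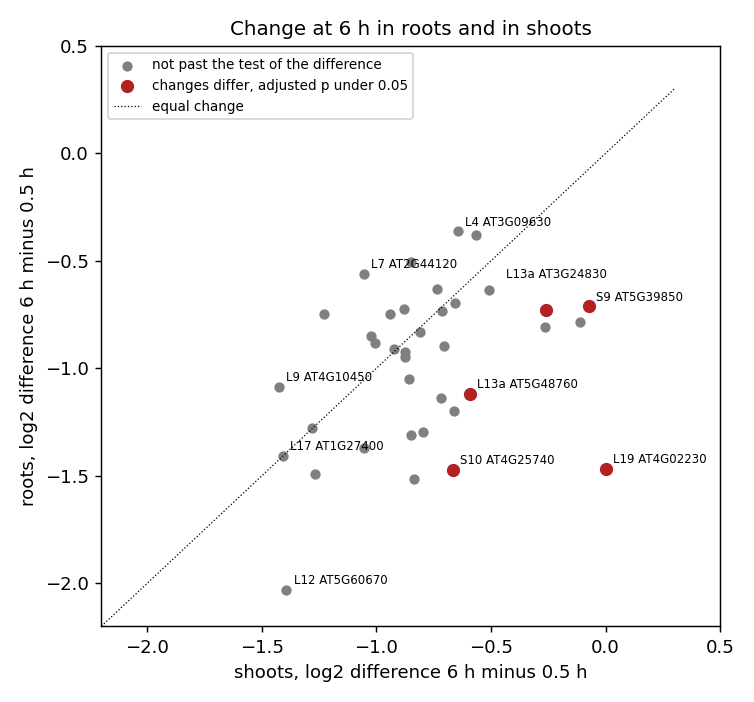
Log2 difference between 6 h and 0.5 h in roots (vertical axis) and in shoots (horizontal axis) for the 37 genes, with the line of equal change. Red points are the 5 genes whose changes differed between the tissues by limma's interaction term; all 5 lie below the line, and AT4G02230 lies farthest from it, at -1.47 in roots and 0.00 in shoots.

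Paralogs of 1 protein differed from each other as well. The families shown in detail were chosen after their values were seen, differences between paralogs were not tested, and each gene is set only against its own 0.5 h signals. In L19, AT3G16780 had shoot signals of 119 and 160 at 6 h, against 355 and 322 at 0.5 h, a difference of -1.28 ± 0.19 (limma's adjusted p = 9.16e-05), while AT4G02230 stood at 0.00. In roots these paralogs differed from 0.5 h by -1.28 ± 0.19 and -1.47 ± 0.20. AT3G16780 was also lowest of the 37 in shoots at 3 h (-1.49 ± 0.19).

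In L14, AT2G20450 had root signals of 175 and 183 at 6 h, against 510 and 505 at 0.5 h (-1.49 ± 0.22), and shoot signals of 71.1 and 121 at 6 h, against 252 and 203 at 0.5 h (-1.27 ± 0.22). Its paralog AT4G27090 had shoot signals of 1215 and 1175 at 6 h, against 1409 and 1458 at 0.5 h (-0.26 ± 0.16, limma's adjusted p = 0.223). In roots AT4G27090 was lower by -0.81 ± 0.16 (limma's adjusted p = 5.49e-04).

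In L7, AT3G13580 had shoot signals of 260 and 286 at 6 h, against 312 and 278 at 0.5 h (-0.11 ± 0.21, limma's adjusted p = 0.738). The other L7 genes were lower in shoots at 6 h, AT2G44120 by -1.06 ± 0.15 and AT2G01250 by -0.86 ± 0.17. In roots AT2G01250 had 1101 and 1098 at 6 h, against 2360 and 2192 at 0.5 h, a difference of -1.05 ± 0.17. The 4 L13a genes lay between -1.23 and -0.26 in shoots at 6 h, and between -1.12 and -0.73 in roots.

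In L7a the 2 genes had differences of -0.75 and -0.70 in roots and of -0.94 and -0.66 in shoots. The span within a family at 6 h was 0.15 in roots and 0.21 in shoots for L4, 0.26 and 0.29 for L10a, and 0.34 and 0.32 for S3a. In L19 the span was 0.19 in roots and 1.28 in shoots, and in L14 it was 0.69 and 1.01.

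**Figure D4:**
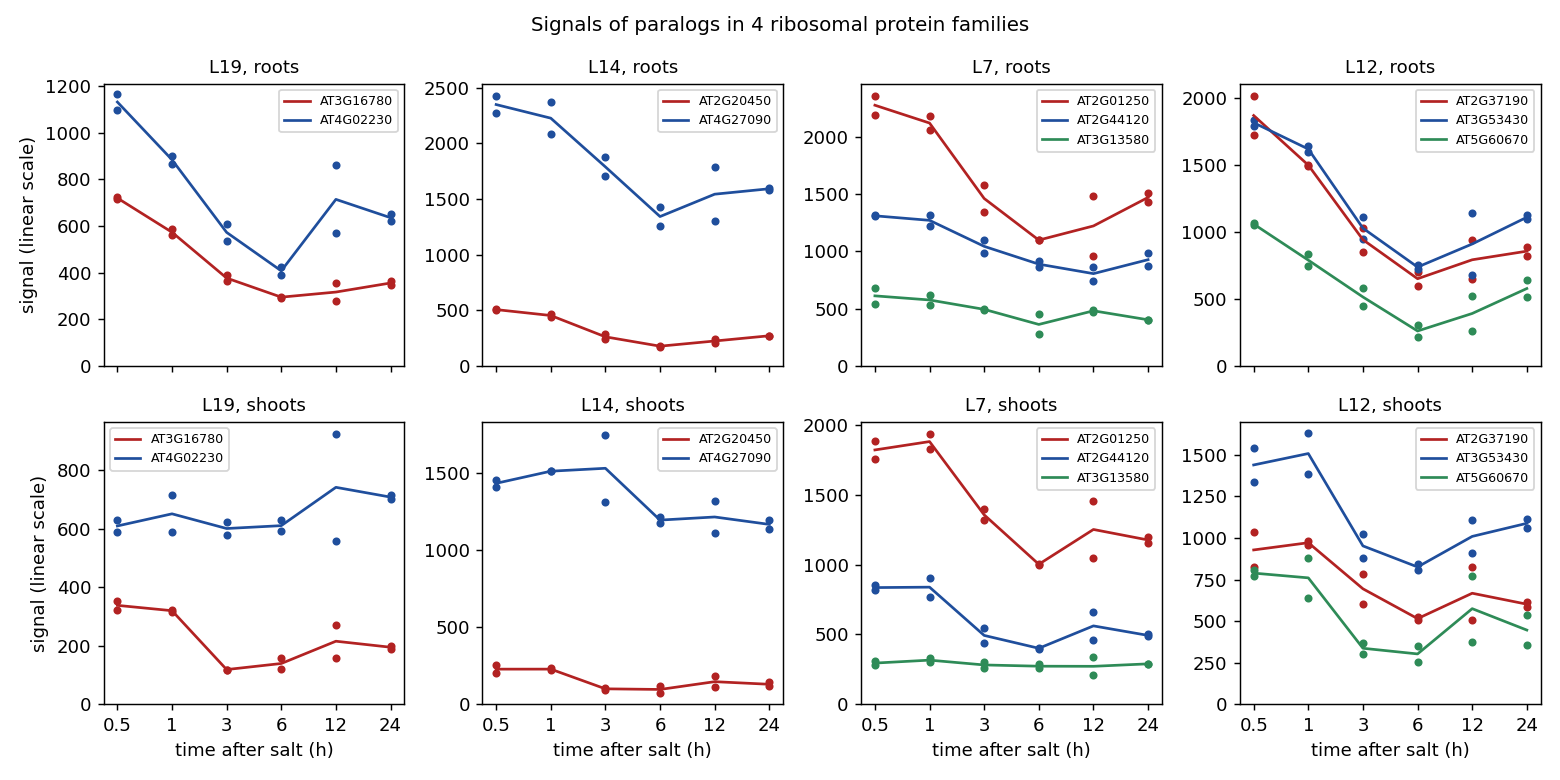
Signal on a linear scale (vertical axis) by time after salt in hours (horizontal axis, not to scale) for paralogs of the L19, L14, L7 and L12 families, roots above and shoots below; points are arrays and lines the means of 2. In shoots at 6 h AT4G02230 (0.00) and AT3G13580 (-0.11) did not pass the test, and AT3G16780 and all 3 L12 genes were lower.

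At 24 h the median of the genes stood between those of 6 h and 0.5 h in each tissue. The median difference of 24 h over 6 h was 0.26 in roots and 0.30 in shoots, against 0.05 and -0.05 for all probe sets. By the adjusted p alone 8 genes were higher at 24 h than at 6 h in roots and 8 in shoots, against 16.8% and 7.38% of all probe sets. By the 2-fold rule the counts were 1 in roots and none in shoots, against 6.63% and 3.16%. The share in roots was thus near that of all probe sets by the first rule and below it by the second. The value of 24 h over 6 h was below 0 for 2 genes in roots (AT4G34670 and AT5G22440) and for 3 in shoots (AT3G24830, AT4G27090 and AT4G25740), and none of these 5 passed. These comparisons share the 6 h arrays with those above.

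The gene called in roots was AT5G60670 (L12), with 514 and 646 at 24 h, against 215 and 309 at 6 h (1.15 ± 0.34, limma's adjusted p = 0.0186). That call was lost without roots 6 h replicate 1 and without roots 24 h replicate 2. AT2G34480 (L18a) was higher at 24 h than at 6 h by the adjusted p alone in both tissues, by 0.74 ± 0.14 in roots and by 0.45 ± 0.14 in shoots, and so was AT1G27400 (L17), by 0.59 ± 0.19 and 0.58 ± 0.19. In roots AT5G39850 (S9) was higher by 0.77 ± 0.17 and in shoots AT4G10450 (L9) by 0.82 ± 0.22.

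The 4 genes still lower by at least 2-fold in roots at 24 h were S10 AT4G25740, L12 AT2G37190, L10a AT5G22440 and L19 AT3G16780, with differences between -1.34 and -1.01. In shoots the lowest at 24 h was L13a AT4G13170, with 262 and 198, against 470 and 445 at 0.5 h, a difference that fell just short of 2-fold (limma's adjusted p = 1.45e-04). The highest at 24 h were AT5G39850 in roots (0.06 ± 0.17) and, in shoots, AT4G02230 (0.22 ± 0.20) and AT5G39850 (0.21 ± 0.17), and none of these passed.

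Averaged over the 6 times, the genes had higher signals in roots than in shoots. The median difference was 0.33, against 0.18 for all probe sets, and with each array centred on its median it was 0.17. By the adjusted p alone 31 of 37 were higher in roots, against 50.0% of all probe sets, and by the 2-fold rule 3 were, against 22.4%. The 3 were L10a AT5G22440 (1.24 ± 0.08), L14 AT2G20450 (1.03 ± 0.09) and L19 AT3G16780 (1.02 ± 0.08). The 2-fold count was 1 without shoots 6 h replicate 1 and 1 without shoots 12 h replicate 2. AT5G22440 had 294 to 950 in roots and 163 to 329 in shoots over the 12 arrays of each, which overlap only because the times are pooled: at every single time its root arrays were above its shoot arrays. The 2 lowest were S8 AT5G20290 (-0.12 ± 0.06) and S10 AT4G25740 (-0.04 ± 0.08), neither past the test, and both turned positive under quantile normalization.

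Other genes of the translation machinery were counted from lists for the same contrasts, where the shares of all probe sets given above apply. The acidic stalk proteins P0 to P3, which bind elongation factors above L12, had 12 tested genes with a median at 6 h of -1.04 in roots and -0.80 in shoots. Of these, 7 were lower in roots and 4 in shoots by the 2-fold rule, and 10 and 11 by the adjusted p alone. AT4G25890 had root signals of 119 and 81.5 at 6 h, against 402 and 480 at 0.5 h (-2.13 ± 0.29, limma's adjusted p = 3.34e-05). AT2G40010 had shoot signals of 17.5 and 8.66 at 6 h, against 57.7 and 64.5 at 0.5 h, and since its 6 h values lay under the filter limit of 41.7 no fold is given. The highest in both tissues was AT3G28500, whose shoot arrays were far apart, at 209 and 74.0 at 6 h, against 62.6 and 180 at 0.5 h (0.22 ± 0.44).

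Biogenesis factors and translation factors had medians nearer 0 at 6 h. Ribosome biogenesis factors had 12 tested genes with a median of -0.36 in roots and -0.49 in shoots. By the 2-fold rule 2 were lower in each tissue, against 13.2% of all probe sets in roots and 5.73% in shoots. By the adjusted p alone 4 were lower in roots and 6 in shoots, against 32.6% and 14.0%. The share in roots was thus near that of all probe sets by both rules. The lowest in roots was AT3G03920, a GAR1-like protein of the particles that modify ribosomal RNA, with 204 and 250 at 6 h, against 732 and 517 at 0.5 h (-1.44 ± 0.23, limma's adjusted p = 1.15e-04). The lowest in shoots was AT3G05060, a NOP58-like protein, with 68.9 and 56.4 at 6 h, against 171 and 144 at 0.5 h (-1.30 ± 0.15, limma's adjusted p = 9.51e-06). The highest were AT2G18220 in roots (0.15 ± 0.24) and AT5G66540 in shoots (0.06 ± 0.24). In shoots at 6 h AT1G06720 (29.0 and 23.7) and AT2G18220 (33.9 and 34.4) lay under the filter limit, so the size of their differences is uncertain. Of 35 listed translation factors 5 could be tested. Their median was -0.40 in each tissue, from -1.39 to -0.14 in roots and from -1.34 to 0.00 in shoots. Of 6 listed regulators only RAPTOR1, the TOR partner, could be tested. It had 141 and 141 in roots at 6 h, against 153 and 144 at 0.5 h. In shoots it had 108 and 136 at 6 h, against 143 and 125 at 0.5 h. Neither difference passed (-0.08 ± 0.14 and -0.14 ± 0.14).

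Of 29 listed nuclear genes for plastid ribosomal proteins 5 could be tested. Their median at 6 h was -0.66 in roots and -0.52 in shoots, with 2 lower in roots and none in shoots by the 2-fold rule. The lowest in roots was AT5G65220, with 26.2 and 42.9 at 6 h, against 127 and 108 at 0.5 h (-1.74 ± 0.33, limma's adjusted p = 5.34e-04). Its mean at 6 h, 34.5, lay under the filter limit on low signals. AT1G64510 lay under that limit in roots both at 6 h (26.9 and 24.0) and at 0.5 h (41.1 and 41.6). AT4G01310 had 43.7 and 43.3 in roots at 6 h, just above it. The size of these root differences, and of the root median at 6 h, is thus uncertain. At 24 h the plastid list had a median of -1.12 in shoots, with 3 of 5 lower by the 2-fold rule and 4 by the adjusted p alone. Of the 37 cytosolic ribosomal protein genes none was called there by the 2-fold rule, and 20 were lower by the adjusted p alone. The difference between the lists was not tested.

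Of 11 listed markers of dividing cells 3 could be tested: AUR1, AUR2 and TOPII, which act in mitosis and chromosome untangling. In roots all 3 were lower at 6 h by the 2-fold rule, by -1.06 ± 0.19, -1.32 ± 0.25 and -1.73 ± 0.26, and again at 12 and 24 h. Their root median was -0.46 at 1 h, -0.999 at 3 h, -1.32 at 6 h, -1.44 at 12 h and -1.68 at 24 h, so it was lowest at 24 h, whereas that of the ribosomal protein genes was lowest at 6 h. The difference between these courses was not tested. AUR2 lay under the filter limit of 41.7 on both root arrays of 6 h, at 40.9 and 38.9. On those of 24 h AUR2 had 24.9 and 37.4, TOPII 30.2 and 35.8, and AUR1 41.6 and 49.2. The size of these late differences is thus uncertain. The summed signal of the 3 markers was 97 to 403 in roots, with 139 and 148 on the 6 h arrays, against 364 and 403 on those of 0.5 h. In shoots none of the 3 passed at 6 h (0.12 ± 0.19, 0.40 ± 0.25 and -0.33 ± 0.26), and their summed signal was 167 and 175 on the 6 h arrays, against 185 and 144 on those of 0.5 h. At 24 h in shoots their median was -0.91, with 2 of 3 lower by the adjusted p alone and 1 by the 2-fold rule. All 3 lay under 41.7 on both of those arrays. The part of dividing cells in the results was not tested.

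**Figure D5:**
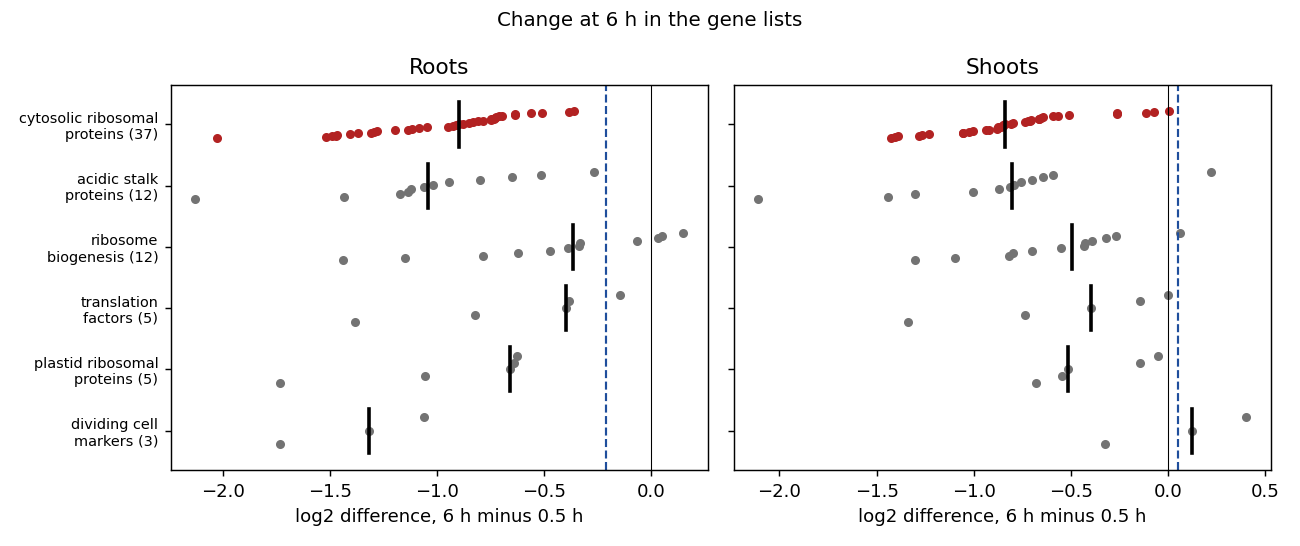
Log2 difference between 6 h and 0.5 h (horizontal axis) for each tested gene of 6 lists (rows, with the number of genes) in roots (left) and shoots (right). Black bars are list medians and the dashed blue line the median of all probe sets; the cytosolic ribosomal protein genes, in red, have medians of -0.90 and -0.84, and the dividing cell markers -1.32 and 0.12.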

How the data were processed

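The files hold 1 intensity signal per probe set and array, made with MAS5 by the authors, per the submitters' processing notes, in a version not given here. A trimmed mean, leaving out 2% at each end, came to between 99.2 and 99.5 on all arrays, so each array had been scaled to a common level, and that scaling was kept. Signals were converted to log2(signal + 2.205), with the 10th percentile of the table as pseudocount. Of 22810 probe sets 64 controls were dropped, and 15199 were tested because 2 or more arrays reached 41.7, the table's median. The platform's gene table gave 13513 probe sets 1 gene, 503 several and 8794 none.

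All 24 arrays entered 1 limma fit of 12 group means (limma 3.58.1, lmFit and eBayes with trend, R 4.3.3; 12 residual and 4.15 prior degrees of freedom). Tests were two-sided and adjusted by Benjamini-Hochberg over all probe sets tested. Figures used matplotlib 3.10.9 (Python 3.11.15). The procedure was also run on simulated data with independent noise and most probe sets unchanged over time. The arrays here differ from that setting, so no call rests on that run. Values in every array were given for members with the largest signals, the extremes of the differences at 6 h and 24 h, of the interaction at 6 h and of roots against shoots, and for some more chosen after their values were seen. The members and lists were chosen with earlier results of these data known. Replicate numbers did not pair the samples: deviations of same-numbered arrays correlated between groups at -0.26 to 0.23, over 0.1 in 5 of 66 pairs of groups.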

Additional observations from a re-analysis of the deposited data

Results flagged for a closer look

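AT4G02230, an L19 gene, stood out because its change differed between roots and shoots by limma's test of the difference itself. The change in roots minus that in shoots was -1.47 ± 0.28 at 6 h (limma's adjusted p = 8.12e-04) and -1.05 ± 0.28 at 24 h (limma's adjusted p = 0.0132), with 2 arrays in each group. Both root arrays of 6 h and 24 h lay below both of 0.5 h, and in shoots the 2 arrays of 24 h lay above both of 0.5 h. Both comparisons rest on the same 0.5 h arrays.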

How the results depend on the processing

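For the 37 genes the pseudocount, the scaling, the filter, the variance trend, the thresholds and the baseline time were each altered, the tissues were fitted separately, and arrays were left out, 1 at a time and both root arrays of 12 h together. Each gene had 1 probe set with no mark for shared probes, so averaging probe sets and using unmarked ones alone could change nothing. The replicate block, fitted although the numbers do not pair the samples, changed no count: 15 lower in roots and 10 in shoots at 6 h, as without it. The cause of the moves below was not tested, apart from settings that change the limit or the samples by construction. With no fold limit the counts lower were 28, 36, 33 and 32 in roots at 3, 6, 12 and 24 h, 22, 32, 23 and 20 in shoots, and 5 for the interaction at 6 h; those higher were 8 in roots and 8 in shoots for 24 h against 6 h, and 31 for roots against shoots. With an adjusted p under 0.01, roots at 3 h had 1, the interaction at 24 h had 0 and 24 h against 6 h in roots had 0. A pseudocount of 16 left 1 in roots at 3 h and 1 for roots against shoots, and one of 1 gave 1 in shoots at 24 h. With each array centred on its median, roots had 0 at 3 h and 2 at 24 h, shoots had 2 at 12 h, the interaction at 24 h had 0, and roots against shoots had 1 with a median of 0.17. Under that centring the medians were -0.035 in shoots at 1 h and 0.16 for the interaction at 6 h, both of the opposite sign, as was AT4G02230 in shoots at 6 h (-0.11). Quantile normalization gave 8 and 26 in roots at 3 and 6 h, 6 and 1 in shoots at 6 and 12 h, 4 for the interaction at 6 h and 6 for roots against shoots, with medians at 6 h of -1.14 in roots and -0.63 in shoots and 0.59 for roots against shoots. It turned AT5G20290 (0.55) and AT4G25740 (0.016) positive in roots against shoots. With 1 h as the baseline, roots had 0, 4 and 0 at 3, 12 and 24 h, a median of -0.52 at 24 h, and the interaction at 24 h had 0; the interaction median at 6 h was 0.063, AT4G02230 in shoots at 6 h was -0.086 and AT5G39850 in shoots at 24 h was -0.13.

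With each array left out in turn, the counts lower were 0 to 6, 13 to 19, 5 to 16 and 2 to 5 in roots at 3, 6, 12 and 24 h, 3 to 7, 8 to 11, 0 to 6 and 0 to 1 in shoots, and 1 to 2 for the interaction at 6 h (2 without roots 6 h replicate 2). Those higher were 0 to 1 for 24 h against 6 h in roots and 1 to 3 for roots against shoots. Near 0 the sign turned with single arrays: the median in shoots at 1 h was -0.023 to 0.051, AT5G39850 was -0.037 to 0.16 in roots and -0.010 to 0.44 in shoots at 24 h and -0.18 to 0.041 in shoots at 6 h, AT4G02230 was -0.042 to 0.047 in shoots at 6 h, and AT4G25740 was -0.11 to 0.018 in roots against shoots. The medians at 6 h kept their sign, between -1.001 and -0.81 in roots and between -0.87 and -0.75 in shoots. The interaction of AT4G02230 at 24 h missed the threshold with 1 h as the baseline, at -0.60 (limma's adjusted p = 0.15).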

Other observations

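Ribosome biogenesis factors, which process and modify ribosomal RNA in the nucleolus, had their lowest shoot median at 3 h and not at 6 h. The 12 tested genes had a median of -0.82 in shoots at 3 h, with 4 lower by the 2-fold rule and 9 by limma's adjusted p alone, and of -0.49 at 6 h. Of all probe sets, 5.08% and 12.2% were lower in shoots at 3 h by these rules. On the shoot arrays of 3 h some of the genes lay under the filter limit on low signals. They were AT1G06720 (20.9 and 10.7), AT2G18220 (25.2 and 34.3) and AT5G66540 (38.3 and 37.8). The size of their differences is uncertain. In roots the same genes had a median of -0.42 at 3 h and -0.36 at 6 h. Whether their time course differs from that of the ribosomal protein genes was not tested.

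AT5G12110, the alpha chain of an elongation factor that recharges eEF1A, had the widest course among the 5 tested translation factors in shoots. Its shoot signals were 277 and 233 (0.5 h), 179 and 235 (1 h), 67.4 and 105 (3 h), 98.8 and 99.6 (6 h), 384 and 204 (12 h), and 884 and 622 (24 h). It was thus lower at 6 h (-1.34 ± 0.36, limma's adjusted p = 0.00954) and higher at 24 h (1.54 ± 0.36, limma's adjusted p = 0.0038), and the arrays of 24 h lay above all others in shoots. In roots it had 47.5 and 57.0 at 6 h, against 145 and 134 at 0.5 h (-1.39 ± 0.36, limma's adjusted p = 0.00472), and 201 and 220 at 24 h (0.58 ± 0.36, limma's adjusted p = 0.221).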
